A study of Mus musculus with 6 samples.

Results

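The fibroblast growth factor (FGF) system described here comprises the FGF genes, their receptors, the co-receptors and adaptors of these receptors, and the feedback inhibitors and transcription factors that the pathway induces. Its members were taken by name from the deposited gene table. The names were any *Fgf* gene with a number, *Fgfr1* to *Fgfr4*, *Fgfrl1*, the binding protein genes *Fgfbp1* and *Fgfbp3*, the klothos *Kl* and *Klb*, *Frs2* and *Frs3*, *Spry1* to *Spry4*, *Spred1* to *Spred3*, *Dusp4* to *Dusp6*, *Etv1*, *Etv4* and *Etv5*. They matched 47 of 32350 entries, with 45 symbols, since *Spry2* and *Fgf14* had a pair of entries each and *Spry3* had none. The entries were measured in calvaria (skull roofs) of 3 heterozygous (Tmem53+/-) and 3 homozygous mutant (Tmem53-/-) pups of the B6N strain at postnatal day 3, untreated, with 1 RNA library per pup. *Tmem53* encodes a transmembrane protein of the nuclear envelope, which the study examined as an inhibitor of bone morphogenetic protein signaling. By the study's methods the mutations are frameshifts made with CRISPR/Cas9 and carried in the germline. Several mutant lines were made, and the study names the line with an insertion of 1 base as the one it examined in detail, while the labels of these libraries name no line. The control pups carry 1 mutant allele themselves, and these libraries hold no wild-type group.

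FGFs that are secreted bind receptor tyrosine kinases together with heparan sulfate of the cell surface. The activated receptor phosphorylates the adaptor FRS2, which recruits the RAS-MAPK cascade. ERK, the last kinase of that cascade, raises the transcription of its own inhibitors, among them Sprouty proteins and the phosphatase DUSP6, and of the ETS factors ETV4 and ETV5, so that levels of these genes are widely used as a readout of the pathway. In human skulls, activating mutations of FGFR1, FGFR2 and FGFR3 close the sutures early.

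Levels are given in FPKM, which divide the fragments of a gene by its length and by the size of the library, so genes can be compared per length. The sex of the pups, read from *Xist* and *Ddx3y*, was female in 2 heterozygous pups (replicates 1 and 3) and male in heterozygous replicate 2 and in all 3 mutants. Pearson's r across genes, which are not independent replicates, ran from 0.956 to 0.991 between heterozygous libraries and from 0.952 to 0.982 between mutant libraries. The labelled tissue held its markers, and 9 of 17 tested entries of osteoblast markers were called higher in the mutants, among them *Sp7* and *Alpl*. Of all entries tested, 3.44% were called higher. The 17 include *Col1a1*, *Col1a2* and *Spp1*, which are listed at 0 in libraries of both genotypes and were not called. Of 18 tested cartilage markers, 14 were called higher, where 3.44% of all entries tested were. The cartilage markers summed to 243 to 269 FPKM in heterozygous and 1060 to 6650 FPKM in mutant libraries. Among the 14, *Ucma*, *Matn3*, *Chad* and *Matn1* had heterozygous means of 0.253, 0.14, 0.119 and 0.211 FPKM. They reached the mean of 0.5 FPKM needed for testing through the mutants alone, so their calls are not independent of that selection. Of 11 tested osteoclast markers, 8 were called lower, where 3.63% of all entries tested were. The osteoclast markers summed to 729 to 3970 FPKM in heterozygous and 229 to 363 FPKM in mutant libraries. Among the 8, *Siglec15*, *Tm7sf4* and *Oscar* had mutant means of 0.0672, 0.0167 and 0.215 FPKM. These reached 0.5 FPKM through the heterozygous pups alone, with the same limit on their calls. The 9 macrophage markers summed to 1130 to 1540 and 83.3 to 877 FPKM. By limma 0 of them were called and 3 had an unadjusted p under 0.05, where 27.9% of all entries tested did. Of 6 red cell entries 4 were listed at 0 in every library, and 6 of 8 endothelial entries had a mean below 0.5 FPKM. The depth of the libraries, read from the size of 1 fragment at low values, was 0.867 to 1.2 relative to heterozygous replicate 1.

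Of the 47 entries, 30 reached 0.5 FPKM on average over the 6 libraries and were tested. The genotypes were compared on log2(FPKM + 0.5) with limma, and calls were made where the adjusted p (Benjamini-Hochberg, over all 13535 entries tested) was under 0.05. In mutant calvaria *Fgfr2* and *Fgf13* were called higher, and *Dusp4*, *Dusp6*, *Spred1* and both *Spry2* entries were called lower. Thus 2 of 30 rose (*Fgf13* with a heterozygous mean under the filter), against a background of 3.44% of all entries tested, and 5 of 30 fell, against 3.63%. Together 7 of 30 were called, beside 7.06% of all entries tested. An unadjusted p under 0.05 (limma) was found for 12 of the 30, beside 27.9% of all entries tested. All falls were among the 10 entries of feedback inhibitors, and they stand for 4 genes, since both *Spry2* entries lie at 1 locus. The median log2 fold change of the 30 entries was -0.03, beside 0.05 over all entries tested. The median size of the change, without its sign, was 0.45, beside 0.22. Every mutant library lay above every heterozygous library in 4 of the 30 entries and below in 7, where 21.2% and 16.0% of all entries tested did so. In bulk tissue, fewer cells of a type and less RNA per cell cannot be told apart. Without heterozygous replicate 3, 0 of the 30 entries were called (limma, 8 of them with an unadjusted p under 0.05), where 0.103% of all entries tested were. Without heterozygous replicate 1 *Dusp4* alone was called, where 0.532% of all entries tested were. Without heterozygous replicate 2 the calls were 3 higher and 8 lower, where 16.4% of all entries tested were called.

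**Figure D1:**
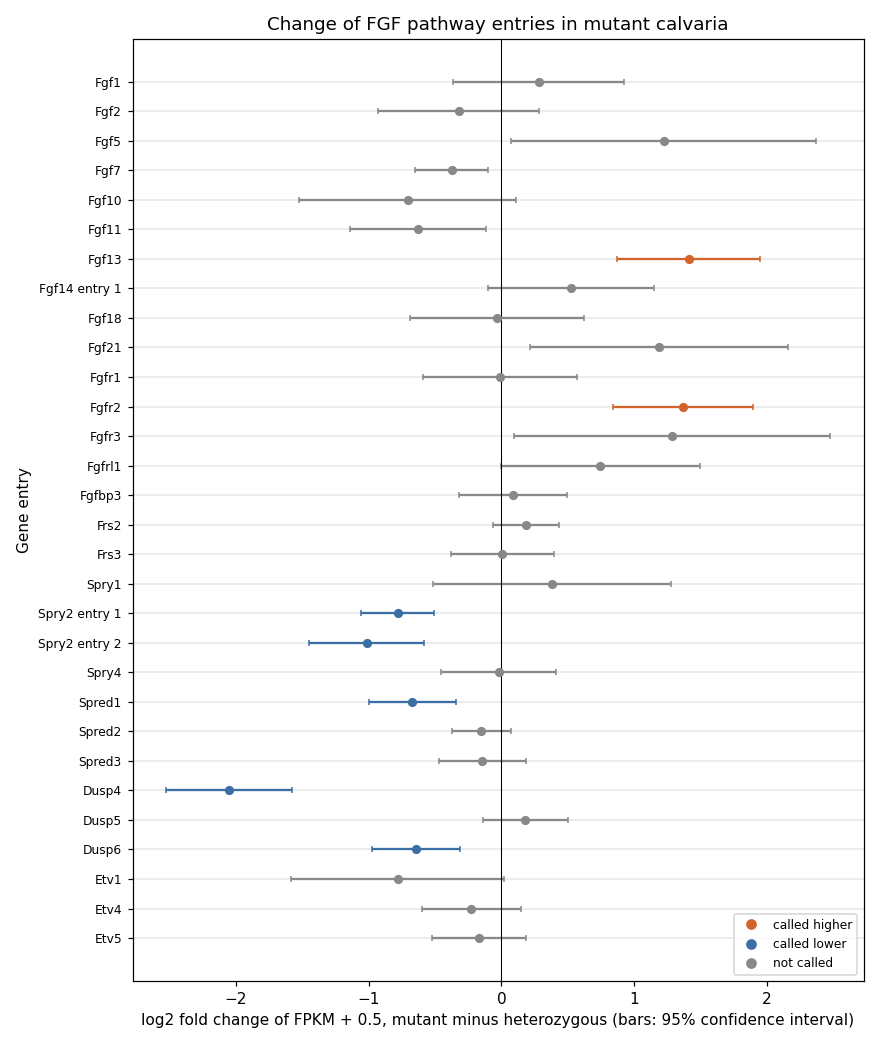
Log2 fold change of each tested FGF pathway entry in mutant against heterozygous calvaria (x axis, log2 of FPKM + 0.5), with 95% confidence intervals from limma, 3 pups per group. The called rises are *Fgf13* at 1.41 and *Fgfr2* at 1.37, and the called falls run from -0.65 for *Dusp6* to -2.05 for *Dusp4*.

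Among the secreted ligands, *Fgf7* was by far the most abundant in these libraries. Of the 7 ligands tested, 0 were called by limma, with 3 at an unadjusted p under 0.05, where 27.9% of all entries tested were. *Fgf7*, a mesenchymal growth factor that acts on the epithelial form of FGFR2, was at 68.1, 73.7 and 71.2 FPKM in heterozygous replicates 1 to 3 and at 50.3, 51.3 and 63.2 FPKM in mutant replicates 1 to 3. All mutants were thus below all heterozygous pups, and the change was -0.37 (log2 fold, SE 0.114, 95% confidence interval -0.648 to -0.0991), with an unadjusted p of 0.0153 and an adjusted p of 0.0956 by limma. Its table entry, at 125684953 to 125971987 of chromosome 2 (coordinates here are those of the table, NCBI build37.2), overlaps that of *Galk2*, a kinase gene, which went from 32.1 ± 1.55 to 24.0 ± 1.84 FPKM (SD, n = 3 each, log2 fold change -0.41, limma adjusted p = 0.0511). The 18 secreted ligands together summed to 89.6 ± 4.02 FPKM in heterozygous and 71.9 ± 9.91 FPKM in mutant libraries (SD, n = 3 each). Of this sum, *Fgf7* held 79.3% ± 0.488 and 76.5% ± 0.987. Neither difference can pass with 3 against 3 (exact two-sided permutation p = 0.1, the smallest possible, adjusted 0.171 over 12 sums, shares and ratios). Without *Fgf7* the ligands summed to 18.6 ± 1.26 and 16.9 ± 2.79 FPKM (exact permutation p = 0.5).

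*Fgf2*, a ligand that acts on mesenchymal cells, was at 6.63, 13.3 and 8.09 FPKM in heterozygous and at 7.76, 6.03 and 7.52 FPKM in mutant libraries. The male heterozygous pup was highest and the groups overlapped (log2 fold change -0.32, 95% confidence interval -0.926 to 0.284, limma adjusted p = 0.445). It shares its locus with the antisense gene *Nudt6*, at 8.10 ± 0.659 and 7.17 ± 0.329 FPKM (SD, n = 3 each). *Fgf18*, a ligand of osteoblast precursors and chondrocytes, was low, at 2.18, 0.875 and 1.84 FPKM in heterozygous and 1.45, 1.80 and 1.28 FPKM in mutant pups. The groups overlapped, and the interval of its log2 difference ran from -0.691 to 0.62 around -0.04 (limma adjusted p = 0.949). *Fgf9*, which acts with *Fgf18* in skeletal growth, stayed under the filter, at 0.124 to 0.729 FPKM over all libraries.

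*Fgf10*, a ligand of limb and lung mesenchyme, was at 7.06, 2.70 and 6.73 FPKM in heterozygous and at 2.87, 2.60 and 3.35 FPKM in mutant pups. Both female pups were thus high, and the male heterozygous pup lay among the mutants (log2 fold change -0.71, limma adjusted p = 0.227). *Fgf21*, an endocrine FGF that cells under stress express, gave the opposite order, with 0.507, 2.06 and 0.736 FPKM in heterozygous and 2.03, 2.61 and 4.28 FPKM in mutant pups (log2 fold change 1.19, limma adjusted p = 0.12). Here too the male heterozygous pup was at the level of the mutants. Without heterozygous replicate 2, which leaves female heterozygous and male mutant pups, *Fgf10* and *Fgf21* had adjusted p-values of 0.0122 and 0.0309. With sex as a covariate their log2 fold changes were 0.10 and 0.39 (limma adjusted p = 0.702 and 0.517). The effects of sex and genotype cannot be told apart for these genes. The pattern rests on 1 male heterozygous pup, which also differed from the females in its osteoclast markers. These summed to 729 FPKM in that pup and to 3970 and 2850 FPKM in the females, and their part was not tested.

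*Fgf5*, known for ending the growth phase of hair, passed the filter only through the mutants, with a heterozygous mean of 0.0727 FPKM. It was at 0.135, 0.0334 and 0.0493 FPKM in heterozygous and at 0.377, 0.425 and 2.42 FPKM in mutant pups. The mutants lay above all heterozygous pups, with replicate 3 far above the others (log2 fold change 1.22, SE 0.476, limma adjusted p = 0.159). Without mutant replicate 3 its log2 fold change was 0.66 (limma adjusted p = 0.12). *Fgf1*, which can bind every FGF receptor, was at 0.481 ± 0.297 and 0.651 ± 0.0719 FPKM (SD, n = 3 each) with overlapping groups. The heterozygous mean of *Fgf1* was also under the filter, which it passed through the mutants. Of the ligands under the filter, *Fgf3*, *Fgf4*, *Fgf15* and *Fgf16* were listed at 0 in all libraries, and *Fgf6*, *Fgf8*, *Fgf17*, *Fgf20* and *Fgf23* did not pass 0.11 FPKM in any. *Fgf23*, the phosphate hormone of osteocytes, was at 0.0551, 0.0318 and 0 FPKM in heterozygous and 0.11, 0 and 0.023 FPKM in mutant pups. *Fgf22* was listed at 0 in all heterozygous pups and at 0.31, 0.319 and 0 FPKM in the mutants.

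**Figure D2:**
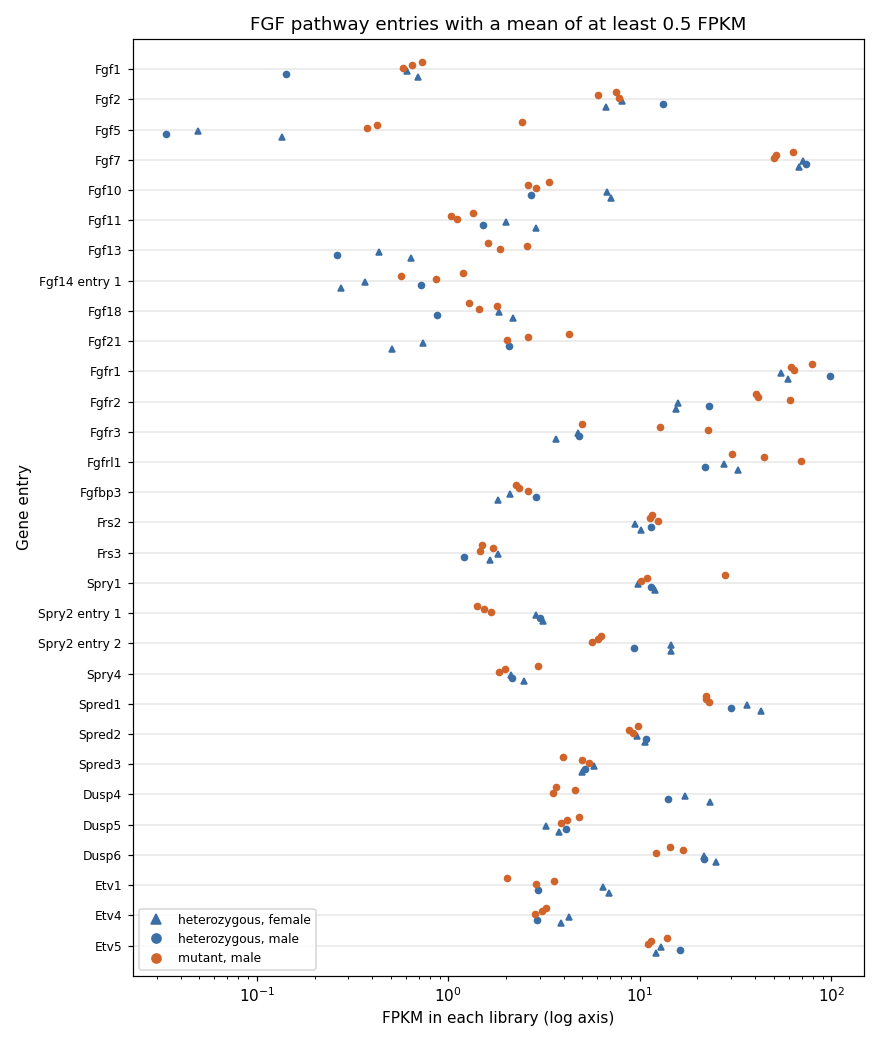
FPKM (log axis) of the 30 tested FGF pathway entries in each library, with triangles for female and circles for male pups, blue for heterozygous and orange for mutant. *Fgf7* and *Fgfr1* are at 50.3 FPKM or more in every library. The genotypes are apart in 11 of the 30 entries, among them *Fgfr2*, *Dusp4* and both *Spry2* entries. The mutants are above in 4 and below in 7, beside 21.2% and 16.0% of all entries tested. For *Fgf10*, *Fgf21* and *Etv1* the blue circle, the male heterozygous pup, lies beside the mutants.

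The intracellular FGFs, *Fgf11* to *Fgf14*, are not secreted and bind voltage-gated sodium channels instead of acting as ligands. *Fgf13*, on chromosome X from 56315326 to 56504103, was low in all libraries but rose in the mutants. It was at 0.642, 0.262 and 0.433 FPKM in heterozygous and at 1.86, 2.58 and 1.6 FPKM in mutant pups, with no overlap. The mutant mean was 4.52 times the heterozygous mean (log2 fold change 1.41, SE 0.224, limma adjusted p = 0.0255). The heterozygous mean of 0.446 FPKM was under the filter of 0.5, which *Fgf13* passed through the mutants alone, so its call is not independent of that selection (0.0368 with no filter on level). The male heterozygous pup was the lowest of all, and with sex as a covariate the change was 1.70 (limma adjusted p = 0.0326). *Fgf11* went the other way, at 2.85, 1.51 and 2.0 FPKM in heterozygous and at 1.12, 1.03 and 1.34 FPKM in mutant pups. The groups did not overlap, but *Fgf11* was not called (log2 fold change -0.63, SE 0.213, unadjusted p = 0.0231, limma adjusted p = 0.119), except without heterozygous replicate 2 (0.0446). The call of *Fgf13* was lost without heterozygous replicate 1 (0.0833) or 3 (0.107) and without mutant replicate 1 (0.0898) or 2 (0.0702).

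*Fgf14* had a pair of entries at 1 locus, at 0.454 ± 0.237 and 0.872 ± 0.313 FPKM for the first, which was not called (limma adjusted p = 0.238), and 0.318 ± 0.165 and 0.571 ± 0.375 FPKM for the second, which was under the filter (SD, n = 3 each). The heterozygous mean of the first was under the filter too, which that entry passed through the mutants. Within a chromosome the table lists first the genes of the plus strand and then those of the minus strand, by comparison with GENCODE M21, for 98.6% and 99.0% of the entries whose strand is known. The first *Fgf14* entry stands among plus-strand genes, opposite to *Fgf14* itself. *Fgf12* was at 0.0401 to 0.116 FPKM over all libraries.

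Of 4 receptor entries tested, 1 was called higher, where 3.44% of all entries tested were. *Fgfr2* rose to 2.63 times its heterozygous mean, *Fgfr1* was at a similar mean in both genotypes with a wide interval, *Fgfr3* was high in 2 of 3 mutants, and *Fgfr4* was near 0. *Fgfr1*, the main receptor of mesenchyme, was at 59.3, 98.8 and 54.6 FPKM in heterozygous and 63.8, 61.5 and 79.7 FPKM in mutant pups. The male heterozygous pup was highest and the groups overlapped (log2 fold change -0.01, 95% confidence interval -0.592 to 0.568, limma adjusted p = 0.98). Without heterozygous replicate 2 its change was 0.25 (limma adjusted p = 0.221), and with sex as a covariate -0.54 (0.101).

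*Fgfr2*, the receptor mutated in the Apert and Crouzon craniosynostoses of humans and expressed in osteoprogenitors at suture edges, lies on chromosome 7 from 137305555 to 137410322. It was at 15.4, 23.1 and 15.8 FPKM in heterozygous and at 60.7, 41.6 and 40.6 FPKM in mutant pups. Every mutant was well above every heterozygous pup, the male one included (log2 fold change 1.37, SE 0.218, 95% confidence interval 0.844 to 1.89, limma adjusted p = 0.0256). The call was lost without heterozygous replicate 1 (0.108) or 3 (0.111), without mutant replicate 1 (0.0846) or 2 (0.0646), and with sex as a covariate (log2 fold change 1.0, 0.0623).

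*Fgfr3*, a receptor of chondrocytes whose activation shortens bones in human achondroplasia, was at 3.67, 4.81 and 4.75 FPKM in heterozygous and at 22.8, 12.7 and 4.98 FPKM in mutant pups. The groups did not overlap, but mutant replicate 3 was just above the highest heterozygous pup (log2 fold change 1.29, SE 0.494, unadjusted p = 0.0379, limma adjusted p = 0.155). Without mutant replicate 3 it was 1.85 and called (0.0286), and without mutant replicate 1 it was 0.80 (0.298). *Fgfrl1*, a receptor without a kinase domain that is needed for diaphragm and skeletal development, was at 32.6, 21.8 and 27.6 FPKM in heterozygous and at 69.8, 44.7 and 30.2 FPKM in mutant pups. Its groups overlapped, since mutant replicate 3 lay below heterozygous replicate 1 (log2 fold change 0.74, SE 0.311, limma adjusted p = 0.181). The cartilage markers summed to 6650, 3580 and 1060 FPKM in mutant replicates 1, 2 and 3, the same order as *Fgfr2*, *Fgfr3*, *Fgfrl1* and *Fgfr4*, and their part in the receptor levels was not tested. *Fgfr4*, a receptor of muscle and liver, was at 0, 0.0527 and 0.0259 FPKM in heterozygous and 0.809, 0.344 and 0.201 FPKM in mutant pups, under the filter.

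**Figure D3:**
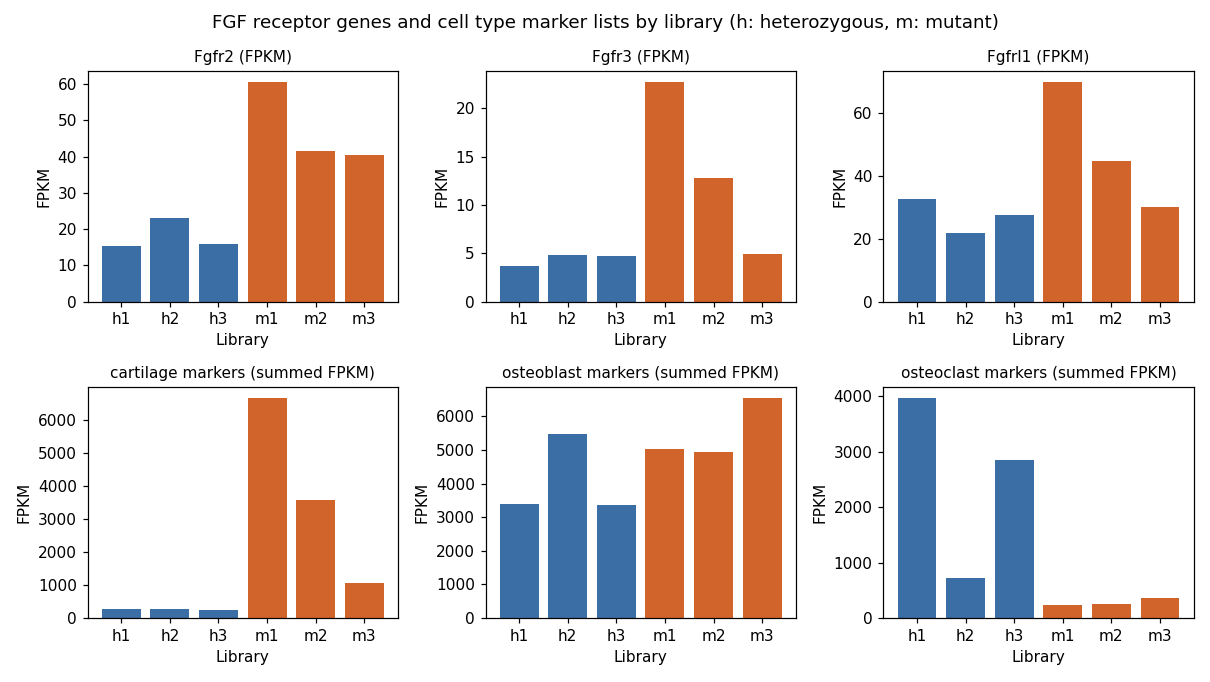
FPKM of *Fgfr2*, *Fgfr3* and *Fgfrl1* (upper row) and summed FPKM of cartilage, osteoblast and osteoclast markers (lower row) in each library, blue for heterozygous (h) and orange for mutant (m). The 3 receptor genes and the cartilage sum are all highest in mutant replicate 1 and lowest of the mutants in replicate 3, and *Fgfr2* is above its heterozygous values in all mutants. The osteoblast sum leaves out 3 entries, *Col1a1*, *Col1a2* and *Spp1*, each of which has values of 0 in more than 1 library and in both genotypes.

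As a share of the summed FPKM of the 4 signaling receptors, *Fgfr1* held 75.7%, 78.0% and 72.6% in heterozygous and 43.1%, 53.0% and 63.5% in mutant libraries. The share of *Fgfr2* was 19.7%, 18.2% and 21.0% in heterozygous and 41.0%, 35.8% and 32.3% in mutant libraries. Neither share overlapped between the genotypes. The means were 75.4% ± 2.69 and 53.2% ± 10.2 for *Fgfr1* and 19.6% ± 1.42 and 36.4% ± 4.36 for *Fgfr2* (SD, n = 3 each, exact two-sided permutation p = 0.1 for both, the smallest possible). *Fgfr3* held 4.93% ± 1.28 and 10.1% ± 5.75, with overlap (exact permutation p = 0.3). The ratio of *Fgfr2* to *Fgfr1* was 0.26, 0.233 and 0.29 in heterozygous and 0.952, 0.676 and 0.509 in mutant libraries. The male heterozygous pup, which had the most *Fgfr1*, thus had the lowest ratio. The receptors summed to 93.5 ± 28.9 and 130.0 ± 16.4 FPKM (exact permutation p = 0.3).

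**Figure D4:**
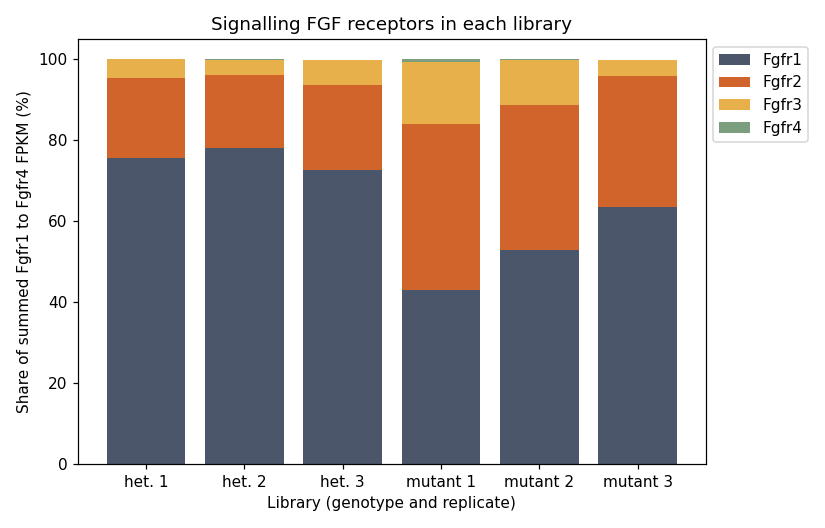
Share of *Fgfr1* to *Fgfr4* in their summed FPKM (y axis, percent) in each library. *Fgfr1* makes up 72.6% to 78.0% in the heterozygous and 43.1% to 63.5% in the mutant libraries, and *Fgfr2* 18.2% to 21.0% and 32.3% to 41.0%.

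Of the binding proteins and co-receptors, *Fgfbp3*, which carries FGFs away from the matrix, was at 2.26 ± 0.548 and 2.40 ± 0.18 FPKM (SD, n = 3 each) with overlapping groups (log2 fold change 0.09, limma adjusted p = 0.78). *Fgfbp1* and *Kl*, the co-receptor of FGF23 in kidney, were listed at 0 in all libraries. *Klb*, the co-receptor of FGF21, did not pass 0.0229 FPKM. The adaptor *Frs2* was at 10.1, 11.5 and 9.41 FPKM in heterozygous and at 12.4, 11.4 and 11.5 FPKM in mutant pups. The groups overlapped, and the interval of its log2 difference was narrow, at -0.0624 to 0.431 (limma adjusted p = 0.287). Its relative *Frs3* was at 1.56 ± 0.317 and 1.56 ± 0.129 FPKM (SD, n = 3 each, limma adjusted p = 0.981).

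Among the feedback inhibitors, genes of the phosphatase, Sprouty and Spred families fell. Of their 10 entries, all tested, 5 fell and 0 rose (limma), where 3.63% and 3.44% of all entries tested did so, with a median log2 fold change of -0.40. The promoters of *Dusp6*, *Spry2* and *Spred1* are shown because these genes fell together, beside that of *Fgfr2*, which rose. No RefSeq promoter was found for *Dusp4*, which also fell. The letters CCGGAA, a form of the site bound by ETS factors, were searched in them. Shorter stretches such as GGAA, which also occur in these sequences, were not searched. Each runs from 250 bases before to 50 after the RefSeq start, on GRCm38.p6, another build than that of the table. They lie at chr10:99262981-99263280 on the plus strand for *Dusp6*, chr14:105896770-105897069 on the minus strand for *Spry2*, chr2:117120821-117121120 on the plus strand for *Spred1* and chr7:130266759-130267058 on the minus strand for *Fgfr2*. Capitals mark CCGGAA on either strand.
Dusp6 promoter: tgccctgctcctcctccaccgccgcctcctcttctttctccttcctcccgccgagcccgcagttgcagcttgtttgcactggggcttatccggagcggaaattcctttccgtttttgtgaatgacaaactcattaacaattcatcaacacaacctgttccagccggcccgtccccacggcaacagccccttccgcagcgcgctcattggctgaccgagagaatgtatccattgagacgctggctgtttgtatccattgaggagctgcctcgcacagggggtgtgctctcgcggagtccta
Spry2 promoter: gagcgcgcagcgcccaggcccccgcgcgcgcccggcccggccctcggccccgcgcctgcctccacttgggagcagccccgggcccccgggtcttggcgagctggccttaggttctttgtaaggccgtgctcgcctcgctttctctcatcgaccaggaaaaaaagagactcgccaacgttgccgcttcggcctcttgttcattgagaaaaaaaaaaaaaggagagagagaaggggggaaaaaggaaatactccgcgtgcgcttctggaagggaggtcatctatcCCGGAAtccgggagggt
Spred1 promoter: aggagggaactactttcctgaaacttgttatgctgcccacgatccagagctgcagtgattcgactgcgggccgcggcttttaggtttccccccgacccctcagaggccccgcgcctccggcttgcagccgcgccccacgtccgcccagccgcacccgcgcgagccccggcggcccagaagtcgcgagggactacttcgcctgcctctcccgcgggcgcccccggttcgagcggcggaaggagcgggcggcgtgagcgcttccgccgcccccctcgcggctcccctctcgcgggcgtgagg
Fgfr2 promoter: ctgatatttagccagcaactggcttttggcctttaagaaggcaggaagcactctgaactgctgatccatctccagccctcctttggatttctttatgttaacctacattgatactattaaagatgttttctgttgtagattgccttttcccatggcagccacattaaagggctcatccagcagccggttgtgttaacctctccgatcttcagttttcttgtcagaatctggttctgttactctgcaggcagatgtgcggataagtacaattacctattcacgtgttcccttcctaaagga

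CCGGAA occurred once, in the *Spry2* promoter. In all, 14.9% of 32851 RefSeq promoters of this length hold it, as do 4 of the 30 promoters of 24 tested member genes that the RefSeq table lists (13.3%), those of *Fgf5*, *Fgfrl1*, *Frs2* and *Spry2*. The share of G and C was 57.3% in the *Dusp6*, 62.7% in the *Spry2*, 72.3% in the *Spred1* and 43.7% in the *Fgfr2* promoter, beside a median of 52.7% over all promoters. A match is a description of these letters only.

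*Dusp4*, a nuclear phosphatase that inactivates ERK and related kinases, had the lowest adjusted p of the 30 tested entries. On chromosome 8 from 35868499 to 35885009, it was at 23.2, 14.1 and 17.1 FPKM in heterozygous and at 3.53, 4.59 and 3.66 FPKM in mutant pups. The lowest heterozygous pup, the male, was still well above the highest mutant. Its log2 fold change was -2.05 (SE 0.197, 95% confidence interval -2.53 to -1.58, limma adjusted p = 0.00779). Leaving out each library in turn ended the call only without heterozygous replicate 3 (0.0557). With sex as a covariate the change was -1.73 (0.0228).

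*Dusp6*, the cytoplasmic phosphatase specific for ERK, is on chromosome 10 from 98725864 to 98730123. It was at 25, 21.6 and 21.6 FPKM in heterozygous and at 12.1, 16.9 and 14.4 FPKM in mutant pups, without overlap. It changed by -0.65 (log2, SE 0.138, limma adjusted p = 0.0462), where *Dusp4* changed by -2.05. The ratio of *Dusp4* to *Dusp6* went from 0.791 ± 0.139 to 0.273 ± 0.0183 (SD, n = 3 each, exact two-sided permutation p = 0.1, adjusted 0.171). *Dusp5*, a nuclear phosphatase for ERK, was at 3.80, 4.11 and 3.24 FPKM in heterozygous and at 3.85, 4.16 and 4.82 FPKM in mutant pups, with overlap (log2 fold change 0.18, limma adjusted p = 0.42). The call of *Dusp6* was near the threshold. It was lost without any 1 library other than heterozygous replicate 2 (adjusted p 0.0661 to 0.161) and with sex as a covariate (0.119).

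*Spry2*, a Sprouty protein that blocks the cascade below receptor tyrosine kinases, had 2 entries at chromosome 14 from 106291163 to 106296408. The second, which stands among minus-strand genes as *Spry2* does, was at 14.5, 9.37 and 14.5 FPKM in heterozygous and at 5.62, 6.04 and 6.24 FPKM in mutant pups. The first, which stands among plus-strand genes, was at 3.13, 3.00 and 2.87 FPKM in heterozygous and at 1.66, 1.53 and 1.41 FPKM in mutant pups. Neither overlapped between the genotypes. The log2 fold changes were -1.02 (SE 0.181, limma adjusted p = 0.0309) and -0.78 (SE 0.115, limma adjusted p = 0.0223). The ratio of the first to the second was 0.244 ± 0.0662 and 0.259 ± 0.0347 (SD, n = 3 each, exact permutation p = 0.7). Whether the libraries were counted by strand is not given in the sources used here, so the first entry is not read as a transcript of its own. Both calls were lost without heterozygous replicate 1 (0.123 for the second and 0.107 for the first entry) or 3 (0.118 and 0.1) and without mutant replicate 1 (0.111 and 0.0815) or 2 (0.0844 and 0.0702), and that of the second also without mutant replicate 3 (0.0534). With sex as a covariate the change of the second was -0.61 (0.0326).

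*Spred1*, which holds neurofibromin at the membrane and so restrains RAS, is on chromosome 2 from 116940222 to 117008366. It was at 42.8, 30.1 and 36.4 FPKM in heterozygous and at 22.9, 22.3 and 22.3 FPKM in mutant pups. The mutants were close together and all lower (log2 fold change -0.67, SE 0.135, 95% confidence interval -0.996 to -0.344, limma adjusted p = 0.0408). Its call was lost without any 1 library other than heterozygous replicate 2 (adjusted p 0.0784 to 0.136) and with sex as a covariate, where the change was -0.41 (0.0749). Its relatives *Spred2*, at 10.4 ± 0.613 and 9.28 ± 0.546 FPKM, and *Spred3*, at 5.32 ± 0.39 and 4.8 ± 0.736 FPKM (SD, n = 3 each), overlapped between the genotypes and were not called (limma adjusted p = 0.337 and 0.533).

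The other Sprouty genes did not go with *Spry2*, though that difference was not tested. *Spry1* was at 12.1, 11.4 and 9.82 FPKM in heterozygous and at 10.1, 10.9 and 27.8 FPKM in mutant pups. Mutant replicate 3 alone was high (log2 fold change 0.38, limma adjusted p = 0.546), and without it the change was -0.07. *Spry4* was at 2.49, 2.15 and 2.12 FPKM in heterozygous and at 1.83, 1.97 and 2.95 FPKM in mutant pups, again with mutant replicate 3 highest (log2 fold change -0.02, 95% confidence interval -0.455 to 0.414, limma adjusted p = 0.954). The sums of the osteoclast and of the macrophage markers were also lower in the mutants, as given above. Mutant replicate 3 had the lowest macrophage sum, at 83.3 FPKM. By limma 0 of the 9 macrophage markers were called, and *Mrc1*, *Fcgr3* and *Cd163* overlapped between the genotypes. The part of the osteoclast and macrophage markers in the falls of the feedback genes was not tested. The osteoclast markers summed to 729 FPKM in heterozygous replicate 2, against 3970 and 2850 FPKM in replicates 1 and 3. Heterozygous replicate 2 had the lowest *Dusp4*, *Spred1* and second *Spry2* values of its group. *Dusp6* was at 21.6 FPKM in both heterozygous replicates 2 and 3, and the first *Spry2* entry was lowest in heterozygous replicate 3.

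**Figure D5:**
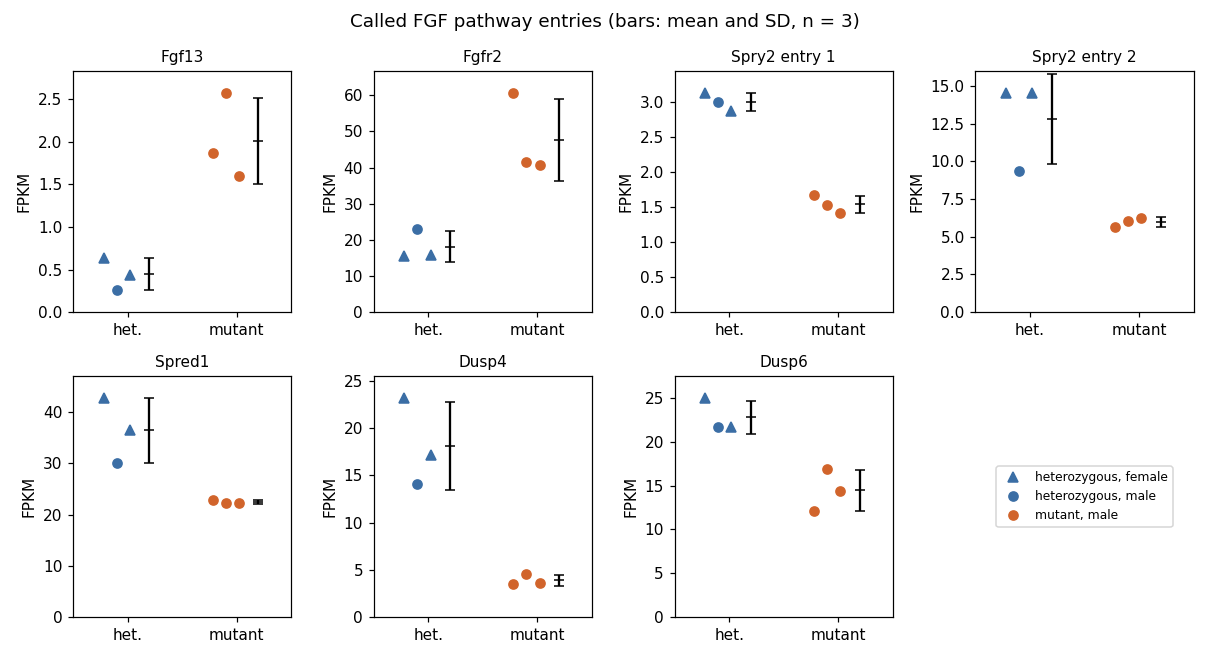
FPKM (y axis, from 0) of the 7 called entries in each pup, with triangles for female and circles for male pups, and bars for the mean and SD of each genotype (n = 3). No panel has overlapping genotypes. *Dusp4* goes from 14.1 to 23.2 FPKM in heterozygous pups to 3.53 to 4.59 FPKM in mutants, and *Fgfr2* from 15.4 to 23.1 FPKM to 40.6 to 60.7 FPKM.

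Of the PEA3 group of ETS transcription factors, which FGF signaling induces in many tissues, 0 of 3 were called by limma. Each had an unadjusted limma p above 0.05, and 7.06% of all entries tested were called. *Etv4* was at 3.88, 2.89 and 4.26 FPKM in heterozygous and 2.83, 3.07 and 3.22 FPKM in mutant pups. *Etv5* was at 12.2, 16.3 and 12.9 FPKM in heterozygous and 11.1, 11.5 and 13.9 FPKM in mutant pups. Both overlapped between the genotypes, with log2 fold changes of -0.23 (95% confidence interval -0.598 to 0.147, limma adjusted p = 0.384) and -0.17 (-0.521 to 0.183, 0.493). *Etv1* was at 6.89, 2.95 and 6.39 FPKM in heterozygous and 2.86, 3.57 and 2.02 FPKM in mutant pups. As with *Fgf10*, the females were high and the male heterozygous pup lay among the mutants (log2 fold change -0.78, limma adjusted p = 0.186). It was called without heterozygous replicate 2 (0.0319), and with sex as a covariate the change was -0.08 (0.858).

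Other genes of the pathway were counted from lists of its known members, together 92 tested entries, of which 3 were called higher and 5 lower (limma), where 3.44% and 3.63% of all entries tested were. The count is near that background, so the genes below are named as single genes. Among 31 adaptors and members of the RAS-MAPK cascade, 1 rose and 0 fell. This was *Rps6ka2*, a kinase that ERK activates, from 4.22 ± 0.694 to 7.14 ± 0.538 FPKM (SD, n = 3 each, log2 fold change 0.70, limma adjusted p = 0.0376). Among 16 tested modulators, the phosphatase gene *Dusp14* rose from 1.59 ± 0.0953 to 6.18 ± 1.23 FPKM (SD, n = 3 each, log2 fold change 1.66, limma adjusted p = 0.00795), and *Dusp9*, another phosphatase for ERK, fell from 1.28 ± 0.408 to 0.421 ± 0.0285 FPKM (-0.93, 0.0481). The mutant mean of *Dusp9* was under the filter of 0.5 FPKM, which it passed through the heterozygous pups alone. Its call is thus not independent of that selection. Among 21 tested heparan sulfate genes, the syndecan gene *Sdc2* rose from 62.2 ± 11.2 to 142 ± 36.4 FPKM (SD, n = 3 each, log2 fold change 1.17, limma adjusted p = 0.0317), and *Sulf1*, which trims sulfate from heparan sulfate and so weakens FGF binding, fell from 119 ± 12.4 to 75.1 ± 5.01 FPKM (-0.66, 0.0287).

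Among 24 immediate-early and ETS targets, 0 rose and 3 fell, beside 3.63% of all entries tested. These encode subunits of AP-1, but the other AP-1 genes of the list were not called, with log2 fold changes of -0.07 for *Jun*, -0.08 for *Fosl1* and 0.20 for *Fosb* (limma adjusted p = 0.812, 0.848 and 0.464). *Fos* was at 20.8, 12.8 and 17.6 FPKM in heterozygous and 4.14, 3.83 and 5.20 FPKM in mutant pups (log2 fold change -1.83, limma adjusted p = 0.0109). *Junb* changed by -0.98 (0.0428) and *Fosl2* by -0.62 (0.0463). *Egr1*, an immediate-early target of ERK, had no overlap between the genotypes and was not called, at 19.2, 14.6 and 17.7 FPKM in heterozygous and 20.1, 23.1 and 42.5 FPKM in mutant pups (log2 fold change 0.65, limma adjusted p = 0.193). Of the 8 called pathway genes, each lost its call without heterozygous replicate 3 (adjusted p 0.0573 for *Dusp14* to 0.151 for *Fosl2*). With sex as a covariate *Rps6ka2* (0.0937), *Dusp9* (0.13), *Sdc2* (0.0941), *Junb* (0.133) and *Fosl2* (0.0639) lost their calls too. *Dusp14* kept it without any other 1 library, and *Fos* without any but heterozygous replicate 3 and mutant replicate 1 (0.0552).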

How the data were processed

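Calvarial RNA of 3 heterozygous and 3 mutant pups was freed of ribosomal RNA with a Ribo-Zero kit and turned into strand-marking libraries, which the authors read as pairs on a NovaSeq and trimmed with the FASTX-toolkit. The submitters' processing notes name TopHat2 2.1.1, Cufflinks 2.1.1 and Cuffdiff 2.1.1, and coordinates are of NCBI build37.2. The authors deposited FPKM, 1 column per library. Annotation, strand option and scaling were not given in the sources used here.

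Values were taken without further scaling. Of 32350 entries, 7233 lack a symbol. Entries with a symbol and a mean of 0.5 FPKM or more (13535) were compared on log2(FPKM + 0.5), which understates changes of low genes, with limma 3.58.1 in R 4.3.3 (eBayes with a variance trend, Benjamini-Hochberg over all of them). The fit was tested on simulated data. Sums, shares and ratios were compared by exact two-sided permutation tests (SciPy 1.17.1), and the ratios and the sum without *Fgf7* were chosen after values were seen. Since the table has no counts, precision rests on the spread between pups.

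Values in every library were given for called members, for members with an unadjusted p under 0.05 and groups apart, and for *Fgfr1*, *Fgfr2*, *Fgfr3*, *Fgfrl1*, *Fgf2*, *Fgf7*, *Fgf9*, *Fgf18*, *Spry1*, *Spry2*, *Spry4*, *Dusp6*, *Etv4* and *Etv5*. Up to 4 called genes of each pathway list were named. Library values of other members, and *Egr1*, were added after values were seen. The members, lists and alternatives were chosen with earlier results of these data known. There were 16 alternatives, among them leaving out each library, a replicate block, and sex as a covariate, which sets the mutants against the 1 male heterozygous pup. RefSeq promoters (GRCm38.p6) were found for 24 of 29 tested symbols, and strands came from GENCODE M21.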

Additional observations from a re-analysis of the deposited data

How the results depend on the processing

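All 7 called entries kept their direction under the 16 alternatives, and all kept their call with a pseudocount of 0.1 or 1 FPKM, a filter at 1 FPKM, median centring, quantile normalization and robust eBayes. Of the 5 lower entries, 3 were called with no filter on level. With sex as a covariate 1 entry was called higher and 3 lower. The study calls the heterozygous pups littermates of the mutants, but the labels do not say whether replicate numbers match litters. Correlations of same-numbered deviations were 0.0469, -0.23 and -0.138, and with 3 pups per group they cannot settle whether pups were paired. The fit with replicate numbers as a block called 0 members higher and 0 lower. It called 30 of all entries in place of 956 (14 of the members had an unadjusted p under 0.05, beside 12 in the main fit). Over all entries, 621 were called with no filter, 1392 with sex, and 14 to 2216 without 1 library. Without 1 library, 0 to 3 members were called higher and 0 to 8 lower, and the members' median log2 fold change was -0.099 to 0.0079. It was -0.14 with a filter at 1 FPKM, where fewer members were tested. Without 1 library the difference of the *Fgfr1* share was -27.4 to -17.2 percentage points, that of *Fgfr2* 14.4 to 18.7, that of *Fgfr3* 2.54 (without mutant replicate 1) to 8.24 (without mutant replicate 3) and that of the ligand sum -23.4 to -14.8 FPKM. In males alone, with 1 heterozygous pup, they were -24.8, 18.2, 6.31 and -21.7. Reversed values were all of members not called. With sex as a covariate the log2 fold change was 0.10 for *Fgf10*, 0.54 for *Fgf18*, -0.22 for *Fgfbp3*, 0.030 for *Spry4* and 0.061 for *Etv4*, and with quantile normalization -0.027 for *Frs3*. Without 1 library it ran from -0.00071 to 0.45 for *Fgf1*, -0.32 to 0.16 for *Fgf18*, -0.17 to 0.25 for *Fgfr1*, -0.031 to 0.24 for *Fgfbp3*, -0.12 to 0.10 for *Frs3*, -0.072 to 0.63 for *Spry1* and -0.20 to 0.087 for *Spry4*. The causes were not tested. Of the 7 calls, 7 were lost without heterozygous replicate 3, 6 each without heterozygous replicate 1, mutant replicate 1 or mutant replicate 2, and 3 without mutant replicate 3, and leaving out heterozygous replicate 2 ended 0 calls, while fewer samples were fitted in each. Sex is partly aligned with genotype.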
